A study of Mus musculus with 3 samples.

Results

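Glutathione S-transferases (GSTs) were followed through single cells of the mouse epididymis, the duct that carries sperm from the testis and in which they mature. The 10 members, taken by gene symbol, were the mu-class genes Gstm1, Gstm2, Gstm5 and Gstm7, the pi-class gene Gstp1, the alpha-class gene Gsta4, the omega-class gene Gsto1, the theta-class gene Gstt1, and the membrane-bound microsomal enzymes Mgst1 and Mgst3, and 10 of 10 were among the 24335 genes of the deposited matrix. Tissue came from untreated wild-type C57BL/6 mice aged 56 days, cut into the head end (caput), the middle (corpus) and the tail end (cauda), with 1 library for each of the 3 regions. The sources used here do not give the number of animals in a library. With 1 library per region no test was made, the exact 95% intervals given cover counting error alone, and regions cannot be told apart from libraries. Single-cell levels were summed over the cells of a class.

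GSTs join glutathione, a small thiol, to reactive compounds, which makes these easier to clear, and several members also reduce lipid hydroperoxides. The cytosolic classes are named by Greek letters, while the microsomal enzymes form a separate membrane family. In the epididymis the lumen holds sperm whose membranes are rich in polyunsaturated lipids and are easily oxidised, and the lining epithelium secretes a range of antioxidant proteins.

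The mu-class members lie in the same gene cluster. GENCODE M21 (GRCm38) gives the positions, and all members are annotated as protein-coding genes. Gstm5 (chr3:107895821-107898686, plus strand), Gstm7 (chr3:107926334-107931817, minus strand), Gstm2 (chr3:107981702-107986453, minus strand) and Gstm1 (chr3:108012255-108017973, minus strand) belong to a cluster of 7 genes that spans 149 kb of chromosome 3 in the order Gstm5, Gstm7, Gstm6, Gstm3, Gstm2, Gstm1, Gstm4. Gstm5 is separated from Gstm7 by 27.6 kb. The pi and omega members share chromosome 19, with Gstp1 at chr19:4035407-4037985 (minus strand) and Gsto1 at chr19:47854970-47864790 (plus strand). Gsta4 lies at chr9:78182774-78209349 (plus strand), Gstt1 at chr10:75783813-75798584 (minus strand), Mgst1 at chr6:138140316-138156755 (plus strand) and Mgst3 at chr1:167371966-167393841 (minus strand).

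Promoter windows of 300 bases, from 250 before to 50 after the start of a transcript, were taken from RefSeq (GRCm38.p6), which held 12 windows for 9 of the 10 members and none for Gsta4. The windows were searched on both strands for the core of the antioxidant response element (TGACNNNGC), which binds the oxidant-responsive factor Nfe2l2 and for the AP-1 site (TGANTCA). The 4 windows with a match are shown, those of Gstm5 and Gstm7, neighbours in the cluster, and of Gstp1 and Mgst1. Each runs 5′ to 3′ on the strand of its gene, and the capitals mark the matches.
Gstm5, chr3:107895604-107895903 (plus strand): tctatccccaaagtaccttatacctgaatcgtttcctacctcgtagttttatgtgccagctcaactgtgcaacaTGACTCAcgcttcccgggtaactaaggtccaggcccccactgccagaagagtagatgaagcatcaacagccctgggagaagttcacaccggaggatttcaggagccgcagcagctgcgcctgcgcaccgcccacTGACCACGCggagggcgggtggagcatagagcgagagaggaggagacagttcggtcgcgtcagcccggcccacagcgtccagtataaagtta
Gstm7, chr3:107931565-107931864 (minus strand), the more downstream of its RefSeq starts: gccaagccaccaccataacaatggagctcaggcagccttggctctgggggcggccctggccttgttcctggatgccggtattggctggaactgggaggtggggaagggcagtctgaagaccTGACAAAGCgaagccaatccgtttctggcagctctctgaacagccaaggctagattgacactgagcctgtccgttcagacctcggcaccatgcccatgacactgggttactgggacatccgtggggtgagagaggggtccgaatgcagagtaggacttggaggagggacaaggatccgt
Mgst1, chr6:138140277-138140576 (plus strand), the more upstream of its RefSeq starts: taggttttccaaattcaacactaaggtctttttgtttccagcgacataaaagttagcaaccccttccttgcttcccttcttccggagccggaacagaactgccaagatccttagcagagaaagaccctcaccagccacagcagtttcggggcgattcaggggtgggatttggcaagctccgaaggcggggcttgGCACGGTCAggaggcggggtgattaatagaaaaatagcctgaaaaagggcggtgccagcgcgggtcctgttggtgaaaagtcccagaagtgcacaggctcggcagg
Gstp1, chr19:4037863-4038162 (minus strand): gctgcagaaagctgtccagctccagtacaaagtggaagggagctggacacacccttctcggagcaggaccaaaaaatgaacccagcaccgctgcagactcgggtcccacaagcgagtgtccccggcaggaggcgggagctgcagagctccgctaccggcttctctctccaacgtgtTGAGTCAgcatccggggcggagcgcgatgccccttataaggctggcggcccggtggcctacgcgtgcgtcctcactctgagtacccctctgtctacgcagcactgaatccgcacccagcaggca
The antioxidant response core began 42 bases before the start of Gstm5, 129 bases before this start of Gstm7 and, on the opposite strand, 56 bases before this start of Mgst1, which made 3 of the 12 windows, against 12.4% of 32851 mouse promoter windows of the same length. AP-1 letters began 176 bases before the start of Gstm5 and 74 bases before that of Gstp1, so in 2 of the 12 windows against 7.81% of all. The AP-1 and antioxidant response matches did not overlap each other. A match describes letters in the window and not a bound site.

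The matrix held unique molecular identifiers (UMIs), each standing for 1 captured transcript. Cells needed at least 200 detected genes, which left 4939 cells for caput, 4831 for corpus and 4785 for cauda, at a median of 5077, 2654 and 2198 UMIs. Mitochondrial transcripts exceeded 20% of UMIs in 3.38%, 28.5% and 25.9% of the cells, and 14 to 21 cell barcodes recurred between pairs of libraries. Cells were assigned to a class by marker genes, none of which is a GST, and those that met no gate or several were left out. The gates held 2464, 2429 and 1231 principal cells (the main secretory cells), 535, 307 and 91 clear cells (acid-secreting), 326, 114 and 51 basal cells, 92, 329 and 1407 fibroblasts and 89, 217 and 554 macrophages of caput, corpus and cauda. The caput alone gave at least 50 smooth muscle-gated (72) and ciliated-gated (82) cells. Genes that the gates did not use went with the names: Epcam, an epithelial adhesion protein, was at 364 to 791 CPM (UMIs of the gene scaled to 1e+06 UMIs of the group) in principal-, clear- and basal-gated cells and at 18.8 to 71.9 CPM in fibroblasts, and Kit, a clear cell receptor, was at 86.1 to 148 CPM in clear-gated cells and at 2.49 to 9.28 CPM in principal- and basal-gated cells. Caput smooth muscle-gated cells were an exception, with Epcam at 235 CPM (180 to 300). Caput endothelial-, macrophage- and erythroid-gated cells had 102, 138 and 107 CPM. The part of epithelial RNA in the GST levels of the smooth muscle-gated cells was not tested. In the caput, 91 cells lay near the threshold of the fibroblast gate, which 92 cells met alone. The 91 can include cells below the threshold or in several gates, so they are not a part of the 92.

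In sum, the 10 members took the largest share of UMIs in epithelial cells. In principal-gated cells they made up 0.198% of all UMIs in the caput, 0.456% in the corpus and 0.360% in the cauda. Basal-gated cells had 0.328%, 0.513% and 0.441%, clear-gated cells 0.293%, 0.321% and 0.238%, and caput ciliated-gated cells 0.395%. Fibroblast-gated cells had 0.130% to 0.173% and macrophage-gated cells 0.0460% to 0.0891%. Caput smooth muscle-gated cells, at 0.189%, were close to caput principal-gated cells. Erythroid-gated cells, which should carry few of these transcripts and so served as a rough guide to free RNA, had 0.0531%, 0.0915% and 0.0395% in caput, corpus and cauda. These are shares of a group's own UMIs and do not give the amount of free RNA per cell. Median depth was 2506.5, 2387 and 2161.5 UMIs in erythroid-gated cells, against 7208.5, 2383 and 1324 UMIs in principal-gated cells.

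**Figure D1:**
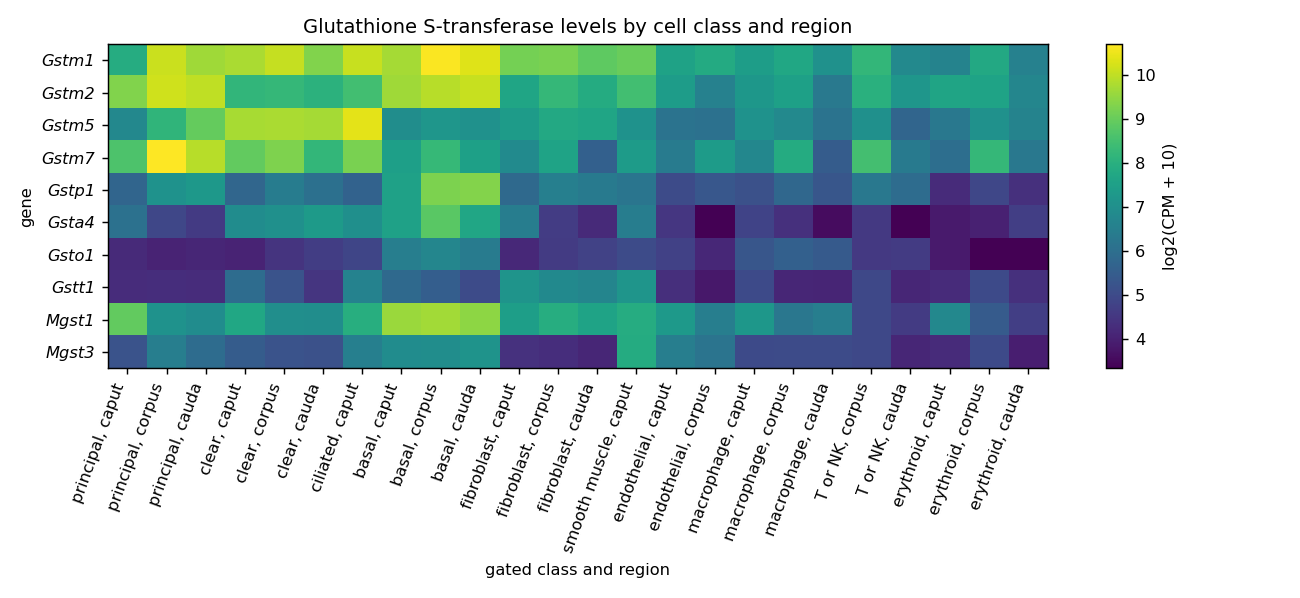
Heat map of log2(CPM + 10) for the 10 members (rows) in 24 groups of at least 50 cells (columns, gated class and region). Gstm7 is highest in corpus principal-gated cells (1668 CPM), Gstm5 in caput ciliated-gated cells (1342 CPM) with clear-gated cells next, and Gstp1, Gsta4, Gsto1 and Mgst1 in basal-gated cells.

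The first comparison asked how the GSTs of principal cells differ along the duct. Caput principal-gated cells had more Mgst1 and Gsta4, and corpus and cauda cells had more Gstm1, Gstm5, Gstm7 and Gstp1. A gene was called different where the ratio was at least 2, the lower limit of its interval was above 1.5 and the higher group held at least 100 UMIs. Between caput and corpus all 10 members reached that minimum, and 7 were called against 26.9% of all genes that reached it: 2 favoured the caput (background 15.3%) and 5 favoured the corpus (background 11.6%). The median log2 ratio of caput over corpus was -1.17 over the members and 0.15 over all genes tested. Between caput and cauda 9 members reached the minimum and 6 were called (background 31.0%), 2 in favour of the caput (19.2%) and 4 of the cauda (11.8%), with medians of -0.92 and 0.35. Between corpus and cauda 0 of 9 were called (background 14.8%), with medians of 0.19 and 0.15. The 3 comparisons share libraries, so they are not separate evidence of one another.

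Gstm1 stood at 229 CPM (224 to 235) in caput, 1097 CPM (1078 to 1116) in corpus and 799 CPM (774 to 825) in cauda principal-gated cells. It was 4.78-fold higher in corpus than in caput (4.64 to 4.93) and 3.48-fold higher in cauda. Gstm7 stood at 392 CPM (384 to 400), 1668 CPM (1645 to 1691) and 962 CPM (934 to 989). It was 4.25-fold higher in corpus than in caput (4.15 to 4.36) and 2.45-fold higher in cauda. For both genes the corpus library was the highest and the caput library the lowest, and no intervals met. With each cell weighted equally its log2 ratio of caput over cauda was -0.84, under the 2-fold limit, against -1.29 with pooled UMIs.

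Gstm5, a mu-class form known from testis and brain, followed another order, at 99.4 CPM (95.7 to 103) in caput, 276 CPM (266 to 285) in corpus and 493 CPM (474 to 513) in cauda. The cauda was thus the highest region for Gstm5, 4.96-fold above the caput (4.69 to 5.25), although Gstm5 lies beside Gstm7 on the chromosome. Gstm2 varied least of the mu-class members, at 631 CPM (622 to 641), 1152 CPM (1133 to 1171) and 1010 CPM (982 to 1038), and its 1.82-fold excess in the corpus was below the limit. Gstp1 stood at 42.9 CPM (40.4 to 45.5), 127 CPM (121 to 134) and 144 CPM (134 to 155), and was 2.97-fold higher in corpus and 3.36-fold higher in cauda than in caput. Its counts are uncertain, because 75.2% of the 50-base stretches in the last 500 bases of its transcript also occur in that of its neighbour Gstp2. For Gstm1 that share was 0.887%, with Gstm3, and for the other members 0.

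Mgst1, which carries glutathione peroxidase as well as transferase activity, ran the other way. It stood at 483 CPM (475 to 492) in caput, 125 CPM (119 to 131) in corpus and 111 CPM (102 to 120.5) in cauda. The caput was 3.87-fold above the corpus (3.66 to 4.08) and 4.36-fold above the cauda (4.003 to 4.77). Mgst3, the other microsomal member, stood at 26.9 CPM (24.9 to 28.9), 80.3 CPM (75.3 to 85.5) and 50.8 CPM (44.7 to 57.6), so that it was 2.99-fold higher in corpus than in caput. Gsta4, an enzyme known for removing hydroxyalkenals formed by lipid peroxidation, stood at 57.3 CPM (54.5 to 60.3), 19.9 CPM (17.5 to 22.6) and 13.8 CPM (10.7 to 17.5). The caput was 2.88-fold above the corpus for Gsta4 (2.51 to 3.31) and 4.16-fold above the cauda (3.25 to 5.39).

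Gsto1 and Gstt1 were near the bottom of the range in principal-gated cells. Gsto1 stood at 8.37, 6.81 and 7.41 CPM, and Gstt1 at 9.09, 9.42 and 9.26 CPM in caput, corpus and cauda, with overlapping intervals for each gene. The Gstt1 level in erythroid-gated cells was 8.93 CPM (1.08 to 32.3), 21.8 CPM (10.9 to 39.1) and 10.5 CPM (1.27 to 38.0), from 2, 11 and 2 UMIs. With so few UMIs, the principal-cell level of Gstt1 could not be set apart from that of erythroid-gated cells. Erythroid-gated cells had 38.9%, 19.2% and 10.5% of the principal-cell level of Gstm1 in caput, corpus and cauda, and 67.4%, 44.7% and 18.1% of that of Gstm5. For Gstm7 they had 13.7%, 17.5% and 7.12%, and for Mgst1 20.3%, 27.0% and 14.3%. In the cauda the Gsta4 level of erythroid-gated cells (15.8 CPM, from 3 UMIs) was as high as that of principal-gated cells.

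**Figure D2:**
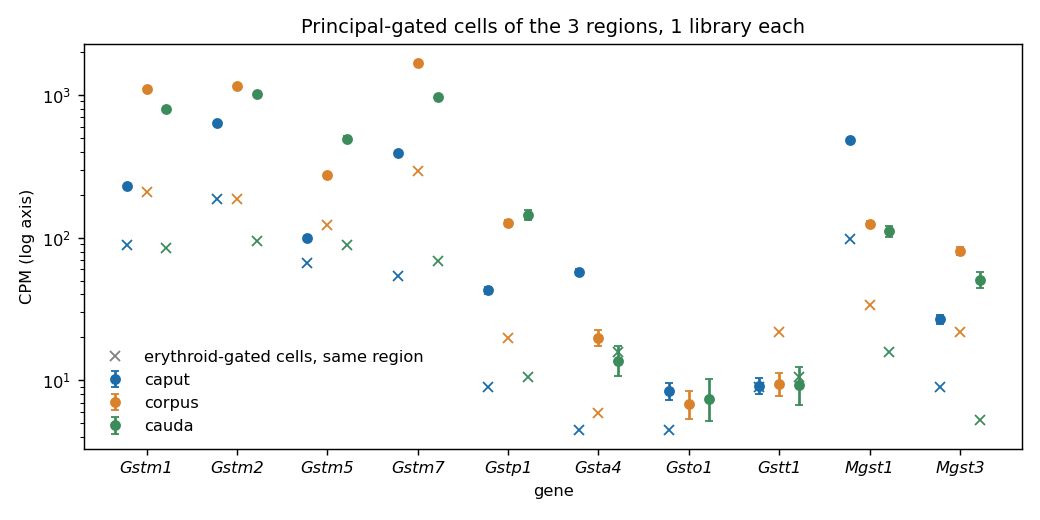
Circles give CPM (log axis) of each member in principal-gated cells of caput, corpus and cauda, 1 library each, with exact Poisson 95% intervals, and crosses give erythroid-gated cells of the same region (Gsto1 had 0 UMIs there in corpus and cauda and has no cross). Mgst1 and Gsta4 are highest in the caput (483 and 57.3 CPM), while Gstm1, Gstm7 and Mgst3 are highest in the corpus and Gstm5 in the cauda.

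The principal-gated cells of the regions also differed in quality. Their median depth was 7208.5, 2383 and 1324 UMIs, and their median mitochondrial share was 4.63%, 15.8% and 17.7%. Without cells over 20% mitochondrial UMIs, 7 members were called between caput and corpus and 7 between caput and cauda. Without any gate, over all cells of a region, 4 and 2 were called. Depth also set how many cells showed a transcript. Gstm5 was seen in 43.8%, 48.5% and 48.4% of principal-gated cells of caput, corpus and cauda, but after each cell was thinned to 1000 UMIs, with 12, 38 and 393 shallower cells left out, in 9.38% (8.25 to 10.6), 21.5% (19.8 to 23.2) and 33.4% (30.2 to 36.7). Thinned erythroid-gated cells gave 8.05%, 9.95% and 11.8% for Gstm5. Mgst1 was seen in 86.4%, 28.0% and 22.0% of principal-gated cells, and in 35.6%, 9.20% and 8.95% after thinning, against 6.90%, 2.62% and 0 of 68 thinned erythroid-gated cells. Gstm7 was seen in 77.1%, 88.6% and 58.9%, and in 29.8%, 70.5% and 46.8% after thinning.

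Within the caput the members differed between principal cells with different segment genes. Caput principal-gated cells were split by genes of known segments, none of them a GST, into 1219 cells led by Cst12 with Adam28, 724 led by Defb47 with Defb18, and 521 led by Lcn5 with Rnase13, and corpus cells into 780 led by Spint4 with Defb23 and 1635 led by Defb22 with Pate1. The deposited data give no position within a region, so the sets are named by their genes. Gstm1 stood at 91.2 CPM (86.1 to 96.5), 273 CPM (262 to 285) and 494 CPM (476 to 513) in these caput sets, and at 1069 CPM (1032 to 1107) and 1108 CPM (1086 to 1130) in the corpus sets. Gstm7 stood at 185, 403 and 864 CPM in the caput sets and at 1332 and 1782 CPM in the corpus sets. For both genes the level of the Lcn5 set lay between those of the other caput cells and of the corpus.

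Mgst3 had its lowest level in the Cst12 with Adam28 set, at 9.45 CPM (7.86 to 11.3), against 39.7 CPM in the Defb47 and 49.9 CPM in the Lcn5 set, and it stood at 50.4 and 90.5 CPM in the corpus sets. Gstm5 stood at 47.3, 126 and 186 CPM in the caput sets and at 182 and 307 CPM in the corpus sets. Mgst1 stood at 499.9 and 524 CPM in the Cst12 and Defb47 sets and at 387 CPM in the Lcn5 set of the caput, and at 222 CPM (206 to 240) and 92.3 CPM (86.1 to 98.8) in the corpus sets. Among the caput sets Gsta4 was highest in the Defb47 with Defb18 cells, at 112 CPM (105 to 120), against 33.9 CPM (30.8 to 37.2) and 35.5 CPM (30.7 to 40.9) in the other caput sets. In the corpus sets Gsta4 stood at 28.6 CPM (22.8 to 35.3) with Spint4 and 16.9 CPM (14.3 to 19.8) with Defb22. The Spint4 interval overlapped those of the Cst12 and Lcn5 caput sets. Epcam, which served as a check, stayed between 461 and 526 CPM in all 5 sets.

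**Figure D3:**
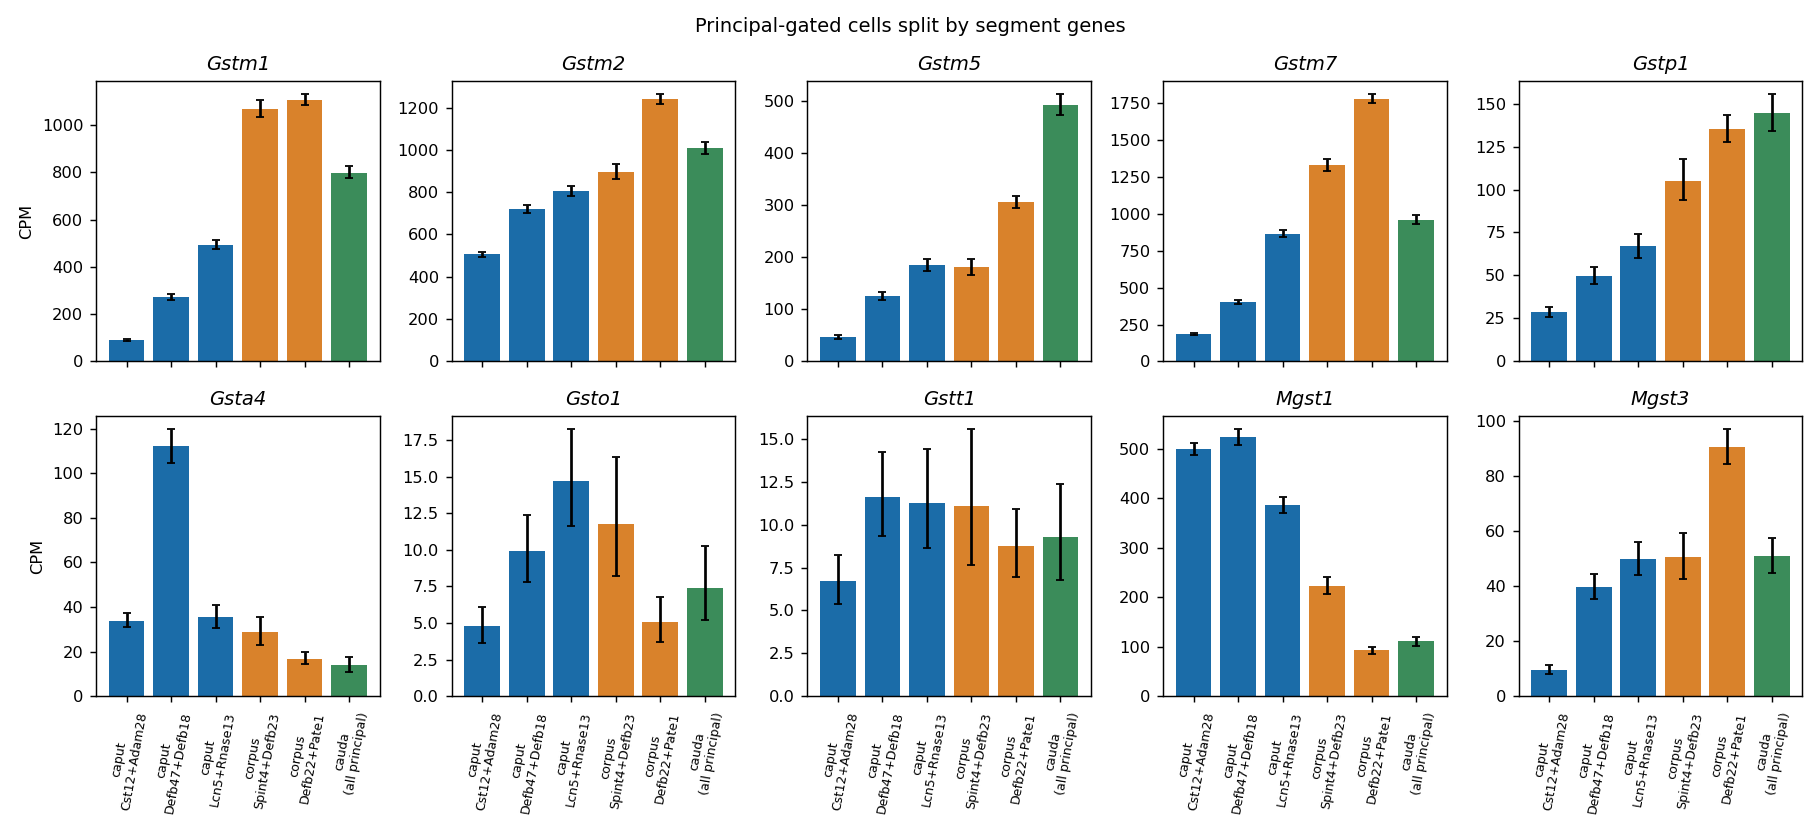
Bars give CPM of each member (1 panel each) in principal-gated cells split by segment genes, 3 sets of the caput, 2 of the corpus and all principal-gated cells of the cauda, with exact Poisson 95% intervals. Gstm1 and Gstm7 are lowest in the Cst12 with Adam28 set and highest in the corpus, Mgst1 is lowest in the Defb22 with Pate1 set, and Gsta4 stands at 112 CPM in the Defb47 with Defb18 set of the caput.

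Basal cells, which sit at the base of the epithelium, had more of several members than principal cells of the same region. In the caput 6 members were higher in basal-gated than in principal-gated cells (background 15.7%) and 1, Gstm7, was lower (15.1%), of 10 that reached the minimum (0 were lower with a stricter principal gate). In the corpus 3 of 7 were higher (9.0%) and 1 lower (17.6%), and in the cauda 2 of 6 were higher (9.47%) and 2 lower (18.6%). These counts cannot be compared between regions, because the smaller basal-gated groups left more members under 100 UMIs. Among them, cauda basal-gated cells had Gsta4 at 197 CPM (79 UMIs), against 13.8 CPM in cauda principal-gated cells. Gsto1, at 74 UMIs in corpus and 30 in cauda basal-gated cells, was also left out of the counts there. Gsto1, which reduces dehydroascorbate, was 9.57-fold higher in caput basal-gated cells (7.92 to 11.6), at 80.1 CPM (70.1 to 91.0), and stood at 95.5 CPM (75.0 to 120) in corpus and 74.8 CPM (50.5 to 107) in cauda basal-gated cells. Its 3 basal intervals overlapped, and the next group of at least 50 cells, corpus macrophages, had 38.1 CPM. Mgst1 stood at 772, 813 and 688 CPM in basal-gated cells of caput, corpus and cauda, which was 6.51-fold above principal-gated cells in the corpus (5.92 to 7.15) and 6.22-fold above them in the cauda, but under 2-fold in the caput.

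Gstp1 and Gsta4 differed between regions within basal-gated cells. Gstp1 stood at 176 CPM (161 to 192) in caput, 600.0 CPM (547 to 657) in corpus and 641 CPM (565 to 724) in cauda, and was 3.41-fold higher in corpus and 3.64-fold higher in cauda than in caput. It was 4.10-fold, 4.71-fold and 4.44-fold above principal-gated cells of the same region, and after thinning it was seen in 10.7%, 44.7% and 48.0% of basal-gated cells (58.0%, 85.1% and 82.4% before). Gsta4 stood at 178 CPM (163 to 194) in caput, 445 CPM (399 to 495) in corpus and 197 CPM (156 to 246) in cauda basal-gated cells. It was 2.51-fold higher in corpus than in caput (2.18 to 2.88), the reverse of its order in principal-gated cells, and 22.3-fold above corpus principal-gated cells (18.9 to 26.5). These were the 2 members of 8 called between caput and corpus in basal-gated cells (background 4.85%). Gstp1 was the 1 of 6 called between caput and cauda (8.72%), and Gsta4 the 1 of 7 called between corpus and cauda (4.41%). The medians of basal-gated cells were 6417.5, 5006 and 4804 UMIs, closer between regions than those of principal-gated cells.

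The mu-class members of basal-gated cells were split. Gstm1 stood at 836 CPM in caput, 1630 CPM in corpus and 1287 CPM in cauda, the highest levels of Gstm1 in any group being corpus and cauda basal-gated cells. Gstm2 stood at 793, 963 and 1072 CPM, within 2-fold of principal-gated cells in every region. Gstm5 (114, 138 and 125 CPM) and Gstm7 (170, 298 and 175 CPM) were low, and the corpus values were close to those of corpus erythroid-gated cells, at 123 CPM for Gstm5 and 292 CPM for Gstm7. In caput and cauda, erythroid-gated cells had less Gstm7, at 53.6 CPM (27.7 to 93.6) and 68.4 CPM (36.4 to 117), and Gstm5 at 67.0 and 89.5 CPM, with intervals that overlapped those of basal-gated cells. Mgst3 stood at 110, 114 and 130 CPM in the 3 regions, with overlapping intervals.

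**Figure D4:**
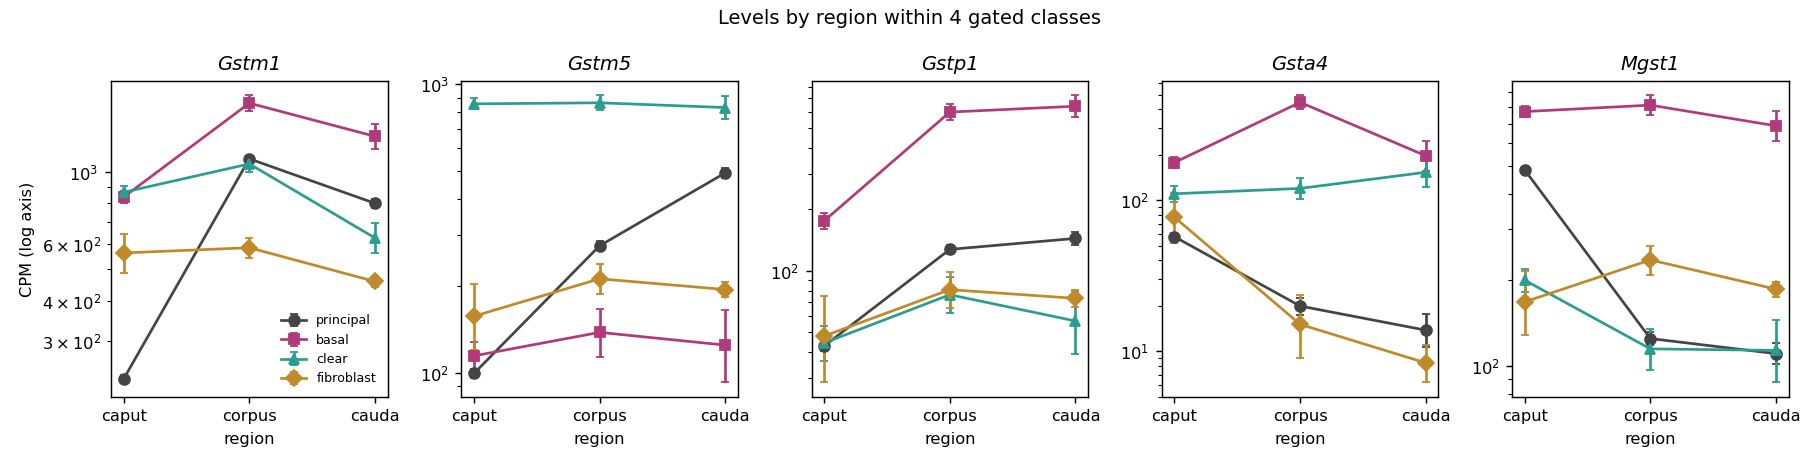
Points give CPM (log axis) of 5 members in principal-, basal-, clear- and fibroblast-gated cells of caput, corpus and cauda, joined within a class, with exact Poisson 95% intervals. Gstm5 stays at 831 to 863 CPM in clear-gated cells of all regions, and Gsta4 is lower in corpus than in caput in principal-gated cells but higher in basal-gated cells.

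Clear cells, which lie among the principal cells, and ciliated-gated cells, whose place in the tissue the data do not give, were high in Gstm5. In clear-gated cells Gstm5 stood at 856 CPM (819 to 895) in caput, 863 CPM (813 to 916) in corpus and 831 CPM (759 to 909) in cauda, and the intervals overlapped. It was 8.61-fold above principal-gated cells in the caput (8.12 to 9.13) and 3.13-fold above them in the corpus, and 1342 CPM (1253 to 1436) in caput ciliated-gated cells was 13.5-fold above them (12.5 to 14.6). After thinning, Gstm5 was seen in 53.6%, 52.4% and 47.7% of clear-gated and 58.5% of ciliated-gated cells (90.3%, 87.9%, 82.4% and 84.1% before). Gstm1 stood at 865, 1058 and 625 CPM in clear-gated cells, and was 3.77-fold above principal-gated cells in the caput. Gsta4 stood at 110, 120 and 153 CPM, 6.01-fold above principal-gated cells in the corpus (4.87 to 7.40).

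Clear-gated cells had 3 members higher (background 15.5%) and 2 lower (15.8%) than principal-gated cells of 9 in the caput, 2 higher (13.4%) and 3 lower (17.6%) of 8 in the corpus, and 0 higher (13.5%) and 3 lower (24.3%) of 6 in the cauda. Gstm2 was lower in each, at 279, 294 and 256 CPM. The cauda count of higher members left out Gsta4, whose 89 UMIs were under the minimum of 100. It stood there at 153 CPM in clear-gated against 13.8 CPM in principal-gated cells. Between regions, 0 of 7 members were called within clear-gated cells for caput against corpus (6.65%), 1 of 6 for caput against cauda (11.5%) and 1 of 5 for corpus against cauda (6.16%). The first was Gstt1, at 50.9 CPM (42.1 to 60.9) in caput and 12.0 CPM (4.84 to 24.8) in cauda, from 7 UMIs, and the other was Gstm7, at 616 CPM in corpus and 287 CPM in cauda. Erythroid-gated Gstm7 was also higher in the corpus, at 292 against 68.4 CPM, and its part in this difference was not tested. Ciliated-gated cells had 2 members higher (8.96%) and 1 lower (11.6%) of 6, with Gstm1 at 1080 CPM and Mgst1 at 240 CPM (2.02-fold lower).

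Outside the epithelium, Gstt1, which acts on small halogenated compounds, was highest in fibroblast-gated cells and, in the caput, in smooth muscle-gated cells. Fibroblast-gated cells had 133 CPM (98.8 to 175) in caput, 105 CPM (87.6 to 124) in corpus and 92.8 CPM (85.2 to 101) in cauda, 11.1-fold above principal-gated cells in the corpus (8.58 to 14.4) and 10.0-fold in the cauda (7.39 to 13.9). Caput smooth muscle-gated cells had 134 CPM (93.9 to 186). In the caput these levels came from 50 and 36 UMIs and stayed under the minimum of 100. The corpus and cauda smooth muscle-gated groups, of 34 and 48 cells, had less Gstt1, at 40.8 CPM (13.25 to 95.2, 5 UMIs) and 19.3 CPM (3.99 to 56.5, 3 UMIs). Gstm1 stood at 562, 583 and 458 CPM and Mgst1 at 168, 235 and 186 CPM in fibroblast-gated cells, while Mgst3 was at 10.7, 9.52 and 7.37 CPM, 6.90-fold below cauda principal-gated cells. Among groups of at least 50 cells, caput smooth muscle-gated cells had the highest Mgst3, at 223 CPM (170.5 to 288) from 60 UMIs in 72 cells. The smaller smooth muscle-gated groups had 269 CPM (185 to 378, 33 UMIs) in corpus and 309 CPM (228 to 410, 48 UMIs) in cauda. Caput endothelial-gated cells had 79.1 CPM (63.4 to 97.5).

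Fibroblast-gated cells had 1 member higher than principal-gated cells (background 3.56%) and 3 lower (11.7%) of 6 in the caput, 1 higher (11.3%) and 3 lower (25.0%) of 9 in the corpus, and 2 higher (27.5%) and 4 lower (15.6%) of 9 in the cauda. Smooth muscle-gated cells had 1 higher (2.55%), Gstm1 at 514 CPM, and 2 lower (8.68%) of 4. Between regions, fibroblast-gated cells had 0 of 6 members called for caput against corpus (12.9%) and for caput against cauda (9.83%), and 1 of 8 for corpus against cauda (4.41%). That member was Gstm7, at 184 CPM in corpus and 38.2 CPM in cauda. Gstm7 of erythroid-gated cells moved with it, at 292 and 68.4 CPM in the same libraries, and its part in the difference was not tested.

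In the remaining classes the called members were all lower than in principal-gated cells. The minimum of 100 UMIs favoured this direction, because these classes held fewer UMIs in all than principal-gated cells. Mgst3 stood at 79.1 CPM in caput endothelial-gated against 26.9 CPM in caput principal-gated cells, but its 88 UMIs were under the minimum. Endothelial-gated cells had 4 of 7 lower in the caput (17.7%) and 5 of 9 in the corpus (14.3%). Macrophage-gated cells had 3 of 7 lower in the caput (10.7%), 6 of 9 in the corpus (22.2%) and 6 of 7 in the cauda (22.0%). T or NK-gated cells had 4 of 8 lower in the corpus (10.5%) and 5 of 7 in the cauda (13.1%), and erythroid-gated cells 5 of 10 in the caput (28.5%), 7 of 8 in the corpus (45.8%) and 7 of 7 in the cauda (37.0%). Gsto1 of macrophage-gated cells stood at 29.1 CPM (12.5 to 57.2), 38.1 CPM (24.9 to 55.9) and 32.3 CPM (25.2 to 40.8), against 4.47 CPM in caput erythroid-gated cells and 0 of 191 and 0 of 76 cells with a UMI in the corpus and cauda ones. The exact upper limits at those counts of 0 are 7.33 and 19.4 CPM. Principal-gated cells had Gsto1 at 8.37, 6.81 and 7.41 CPM, but the macrophage counts of 8, 26 and 70 UMIs were under the minimum.

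The other GST genes, 16 of 17 listed being in the matrix, split along the duct as well. In principal-gated cells 8 reached the minimum between caput and corpus, with 2 favouring the caput (15.3% of all genes) and 4 the corpus (11.6%). Gstt2 stood at 83.0 CPM in caput, 8.07 CPM in corpus and 4.73 CPM in cauda (10.3-fold from caput to corpus, 8.38 to 12.8), and Gstt3 at 115 CPM in caput and 55.7 CPM in corpus. Gsta2 stood at 0.418, 11.5 and 34.8 CPM, and Gsta3 at 46.2, 148 and 131 CPM. Gstm6, beside Gstm7 in the cluster, stood at 103, 336 and 54.9 CPM, so that it was 6.12-fold higher in corpus than in cauda (5.40 to 6.95), and Gstm4 stood at 9.78, 45.7 and 17.3 CPM. Between corpus and cauda 2 of 7 were higher in the corpus (8.43%) and 1 in the cauda (6.41%). In basal-gated cells Gsta3 stood at 252 CPM (234 to 270), 468 CPM (421 to 519) and 259 CPM (212 to 314). It was highest in the corpus, like Gsta4, but was not called between any regions. Hpgds, the prostaglandin D synthase of the sigma class, was found in macrophage-gated cells, at 272 CPM in caput, 157 CPM in corpus and 164 CPM in cauda, 69.1-fold above principal-gated cells in the corpus (45.0 to 110). Gstk1, of the kappa class, was lower in caput clear-gated than in caput principal-gated cells, at 25.6 against 63.6 CPM.

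In a list of genes that make, recycle, break down or move glutathione, more were called higher in the caput than in the corpus. Of 27 listed, 19 reached the minimum between caput and corpus principal-gated cells, 7 favoured the caput (15.3% of all genes tested) and 1 the corpus (11.6%), and the median log2 ratio was 0.72 against 0.15 over all genes. The genes that make glutathione were not called, with Gclc at 18.4 CPM in caput and 25.0 CPM in corpus, Gclm at 335 and 312 CPM, and Gss at 8.45 and 10.4 CPM. Gsr, which recycles it, was not called either, at 42.3 and 48.3 CPM. Lap3, a leucine aminopeptidase that can split cysteinylglycine, stood at 951 CPM in caput and 73.8 CPM in corpus (12.9-fold, 12.0 to 13.8). Ggt7, of the gamma-glutamyltransferase family, stood at 42.7 and 0.757 CPM (56.4-fold, 29.6 to 124), Slc1a1, a transporter of glutamate and cysteine, at 84.9 and 9.92 CPM (8.56-fold), and Ggct, gamma-glutamylcyclotransferase, at 118 and 23.2 CPM (5.06-fold). Against the cauda 6 of 18 favoured the caput (19.2% of all genes) and 0 the cauda (11.8%), led by Lap3 (31.7-fold), Ggt7 (20.7-fold), Slc1a5, a glutamine transporter (7.71-fold), and Slc3a2, the heavy chain of the cystine transporter (4.92-fold). Between corpus and cauda 2 of 15 favoured the corpus (8.43% of all genes), Slc1a5 (6.34-fold) and Lap3 (2.46-fold), and 3 the cauda (6.41%). Ggct and Slc1a1 were higher again in cauda than in corpus, at 72.0 and 64.4 CPM.

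Few genes of the oxidant-response list were called. Of 18 genes, 18 reached the minimum between caput and corpus, 1 favoured the caput (15.3% of all genes) and 3 the corpus (11.6%), with a median log2 ratio of -0.02 against 0.15 over all genes. Nqo1, a quinone reductase and a standard target of Nfe2l2, stood at 11.0 CPM in caput, 63.1 CPM in corpus and 9.06 CPM in cauda (5.72-fold from caput to corpus, 4.99 to 6.58). Srxn1, sulfiredoxin, stood at 10.3, 51.4 and 46.7 CPM, and Aldh3a1, an aldehyde dehydrogenase, at 3.92, 13.03 and 1.03 CPM. Akr1a1, an aldo-keto reductase, was 2.09-fold higher in the caput, at 813 against 389 CPM. Prdx6, a peroxiredoxin that reduces phospholipid hydroperoxides, was 2.87-fold higher in caput than in cauda, at 746 against 260 CPM. Between corpus and cauda 3 of 15 favoured the corpus (8.43% of all genes), Aldh3a1 (12.7-fold), Nqo1 (6.97-fold) and Prdx6 (2.18-fold), and 1 the cauda (6.41%), Hmox1, the haem oxygenase (3.33-fold). Against the cauda, 2 of 17 favoured the caput (19.2%) and 2 the cauda (11.8%).

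Across the 24 groups, Pearson's r of log2(CPM + 10) was above 0 for 42 of the 45 pairs of members and at least 0.5 for 25. It ran from 0.80, for Gstm2 with Gstp1, to -0.11, for Gstm7 with Gsto1. These r describe groups that share libraries and depth. Among 7297 genes with at least 1000 UMIs, those most like Gstm2 were Suox (0.92), Aldh1a1 (0.91) and Mthfd2 (0.89), and those most like Gstm7 were Pdzk1ip1 (0.90), Cldn3 (0.88) and Tmc5 (0.88). Gstm5 was most like Smim5 (0.89), Prr15l (0.87) and Atp6v1c2 (0.86), the last a marker of the clear cell gate. Gstm1 was most like Hmgn1 (0.88), Abcd3 (0.87) and Phpt1 (0.87). Gstp1 was most like the gene listed under the clone name WI1-1003N17.1 (0.98), Gsta3 (0.90) and Lgals7 (0.86). Gsta4 was most like Dsp (0.88), Gpc4 (0.87) and Perp (0.87), and Gsto1 most like Dhrs3 (0.86), Tmem176a (0.84) and RP23-205D10.4 (0.84). Mgst1 was most like Sox9 (0.89), Pgf (0.88) and Fads1 (0.88), Mgst3 most like Bcam (0.87), Net1 (0.84) and Tinagl1 (0.82), and Gstt1 most like Sdc2 (0.90) and Mdk (0.84).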

How the data were processed

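UMI counts of single cells were analysed in 3 libraries, 1 per region. The deposited counts were made by the authors with STAR 2.7.3a on GRCm38.p6 and UMI-tools, per the submitters' processing notes. The sources used here do not say how empty wells were removed or whether counting used strand. Gates used 116 of 118 listed markers: a cell's share of UMIs from a class's markers had to reach 20% of the 99th-percentile share (of its region for principal cells, of the highest region for others), with at least 3 markers seen and 1 gate passed. This rule was set after the data were seen, and 442, 535 and 431 caput, corpus and cauda cells lay near the principal threshold (0.8 to 1.25 times it). Cells passing several gates (733, 535 and 533) or none (262, 529 and 697) were left out. No doublet caller was run. The members and lists were chosen with earlier results of these data known. All 10 members are named, with other GST genes that were called, up to 4 called genes of the 2 pathway lists per comparison, and the 3 genes most like each member, of which 1 is not reported here.

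UMIs were summed by group and given as CPM with exact Poisson intervals, ratios had exact conditional binomial intervals, and shares had Clopper-Pearson intervals. For ratios, 3 UMIs stood in for a group with 0. Python 3.11.15, numpy 2.4.6, scipy 1.17.1, matplotlib 3.10.9 and R 4.3.3 with edgeR 4.0.16 (for TMM factors only) were used, and the size rule was tested on simulated data. Alternatives covered scaling, weighting of cells, the mitochondrial ceiling, the gate, filters and depth. Total depth was 41500792, 21495211 and 18341476 UMIs.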

Additional observations from a re-analysis of the deposited data

Results flagged for a closer look

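Gsta4 was flagged because its caput and corpus libraries differed in opposite directions in separate cell classes. Its log2 ratio of caput over corpus was 1.52 in principal-gated cells (57.3 against 19.9 CPM) and -1.33 in basal-gated cells (178 against 445 CPM). With 1 library per region the difference between the classes was not tested.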

How the results depend on the processing

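No paired analysis was possible because each region had 1 library. Of 80 ratios recomputed for each pair of regions in principal-gated cells, 72 (caput against corpus), 65 (caput against cauda) and 68 (corpus against cauda) kept their direction and side of the size rule. Removing the gate had the widest effect: 4 members were called between caput and corpus (7 with the gate), 2 between caput and cauda (6) and 4 between corpus and cauda (0). The log2 ratio of Gstm7, caput over cauda, turned from -1.29 to 0.065. Without the gate cell makeup also differs between regions, and its part in these changes was not tested. With cells weighted equally 1 member, Gstm7, was called between corpus and cauda. Alternatives for the other classes were chosen after seeing the data. With a stricter principal gate, 0 members (main 1) were lower in caput basal-gated cells, 1 (main 2) in caput smooth muscle-gated cells and 2 (main 1) in corpus basal-gated cells than in principal-gated cells. Without cells over 20% mitochondrial UMIs, 1 member (main 2) was higher in corpus clear-gated cells, 2 (main 1) lower in corpus basal-gated cells and 1 (main 2) higher in cauda fibroblast-gated cells. The causes of the changes in these other classes were not tested. Depth limits Gsto1 and Gstt1, at 36 and 45 UMIs in cauda principal-gated cells.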

Other observations

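Germ-gated cells, which carry the sperm protamine transcripts Prm1 and Prm2 among their markers, were too few in any region for the comparisons (2, 21 and 17 cells). Pooled, the 40 cells had Gstm5 at 3724 CPM (3310 to 4176, from 293 UMIs), with a UMI in 35 of 40 cells. The other mu-class members stood at 242 CPM (Gstm1), 267 CPM (Gstm2) and 254 CPM (Gstm7) in the same cells, and Mgst1 at 127 CPM (61.0 to 234). Gsto1 had 0 UMIs, with an exact upper limit of 46.9 CPM. By library, Gstm5 stood at 3133 CPM (2143 to 4423, 32 UMIs) in caput, 3726 CPM (3179 to 4340, 165 UMIs) in corpus and 3971 CPM (3217 to 4849, 96 UMIs) in cauda germ-gated cells, with overlapping intervals.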
